A study of Homo sapiens with 8 samples.

Results

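The 5 arrays labelled DAOY-MXD3 stable 1 to 5 were compared with each other. They are 5 of the 8 arrays of the series and were chosen by their titles. DAOY is an established human medulloblastoma cell line. The 5 lines, called MXD3 lines 1 to 5 here, carry the transgene pHM6-MXD3 and were kept under 800 µg/ml of the selection drug G418, per the labels. The study also hybridised stable lines with the empty vector and parental DAOY cells, and no comparison with them was made here. The labels do not say whether a numbered line is 1 clone or a pool of cells. Each line was read on 1 array, so a line, its culture, its RNA preparation and its array cannot be told apart, and no value has an error of its own line.

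MXD3 is a small basic helix-loop-helix zipper protein that pairs with MAX and recruits SIN3 corepressors to the E-box sites that MYC and MAX also bind. In the developing cerebellum it is known from proliferating granule cell precursors, the cells from which many medulloblastomas arise. All levels below are log2 intensities after background correction and quantile normalization, so a difference of 1 is 2-fold, and levels of different genes are not set against each other. A gene is called detected on an array where its probe had a detection p-value below 0.05.

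The MXD3 probe read 7.47 in line 1, 7.22 in line 2, 6.98 in line 3, 8.08 in line 4 and 6.18 in line 5, and it was detected on all 5 arrays. Line 4 was highest and the array labelled line 5 was lowest, a range of 1.91. Whether this probe reads the message of the transgene, of the cells' own gene or of both was not analysed here. MYC, the activator that competes for MAX, read 12.40, 12.94, 12.61, 12.78 and 12.60 in lines 1 to 5. MAX, the shared partner, read 8.70, 8.87, 8.72, 8.84 and 9.12, with line 5 highest. MNT, a widely expressed MAX-binding repressor, had a range of 0.43, MXD4 of 0.64 and SIN3A, a corepressor scaffold, of 0.74. Of the 14 measured members of the network, 3 had a range of 1 or more (21.4%, against 17.6% of all genes). These were MXD3, MLXIP and MYCN, of which MLXIP was detected on 3 arrays and MYCN on line 3 alone. Other probes of 3 further members had ranges of 1 or more, at 1.70 for MYCL, 1.14 for MAX and 1.04 for MXI1.

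The labelled cell type was set against lists of markers. Of 18 neuronal marker genes 11 were measured, of 12 glial markers 3 and of 17 neural stem and granule precursor markers 11. The neuronal tubulin gene TUBB3 read 11.36 in line 5, where it was lowest, with a range of 0.64. ZIC2, a transcription factor of cerebellar granule precursors, lay between 11.05 and 11.40. OLIG2, a glial lineage factor, read 7.34 in line 1 and 7.89 to 8.40 in the other 4. The astrocyte gene GFAP, the granule precursor gene ATOH1 and the granule neuron gene NEUROD1 were among the markers that did not pass the detection filter or have no named probe. Of 14 mesenchymal and muscle markers 11 were measured, of 16 epithelial markers 6 and of 15 blood and endothelial markers 6, and the leukocyte gene PTPRC was detected on 2 arrays only.

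In total 11643 genes were measured, which means that their probe had a detection p-value below 0.01 on at least 1 of the 5 arrays, and 10100 had one below 0.05 on all 5. The median SD of a gene over the 5 lines was 0.24, and 10% of genes had an SD above 0.49. The range over the lines was 1 or more in 2050 genes (17.6% of those measured) and 2 or more, which is 4-fold, in 242 genes (2.08%). Of these 242, 138 were detected on all 5 arrays. Lines 1 and 3 were the most alike, with 306 genes 2-fold or more apart. Lines 1 and 2 had 688 such genes and lines 1 and 5 had 678, the largest numbers among the 10 pairs. Measured against the mean of the other 4, 355 genes were 2-fold or more apart in line 5, 293 in line 2, 278 in line 1, 182 in line 4 and 181 in line 3. Mean array intensity before normalization was between 1346 in line 4 and 1797 in line 1, and its part in these counts was not tested.

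The genes with the largest spread among those detected on all 5 arrays showed several patterns over the lines. HAPLN1 codes for the link protein that fastens proteoglycans to hyaluronan. It read 6.29 in line 5, against 11.41, 11.76, 11.90 and 11.62 in lines 1 to 4. Line 5 alone was low, and the other 4 were close together. ESM1, which codes for the secreted proteoglycan endocan, read 6.31, 11.27, 8.24, 8.73 and 11.47 in lines 1 to 5. Lines 2 and 5 were high, lines 3 and 4 intermediate and line 1 low. MGP codes for matrix Gla protein, an inhibitor of calcification, and read 10.96, 5.98, 10.41, 8.28 and 10.31. Here line 2 was low and line 4 intermediate.

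**Figure D1:**
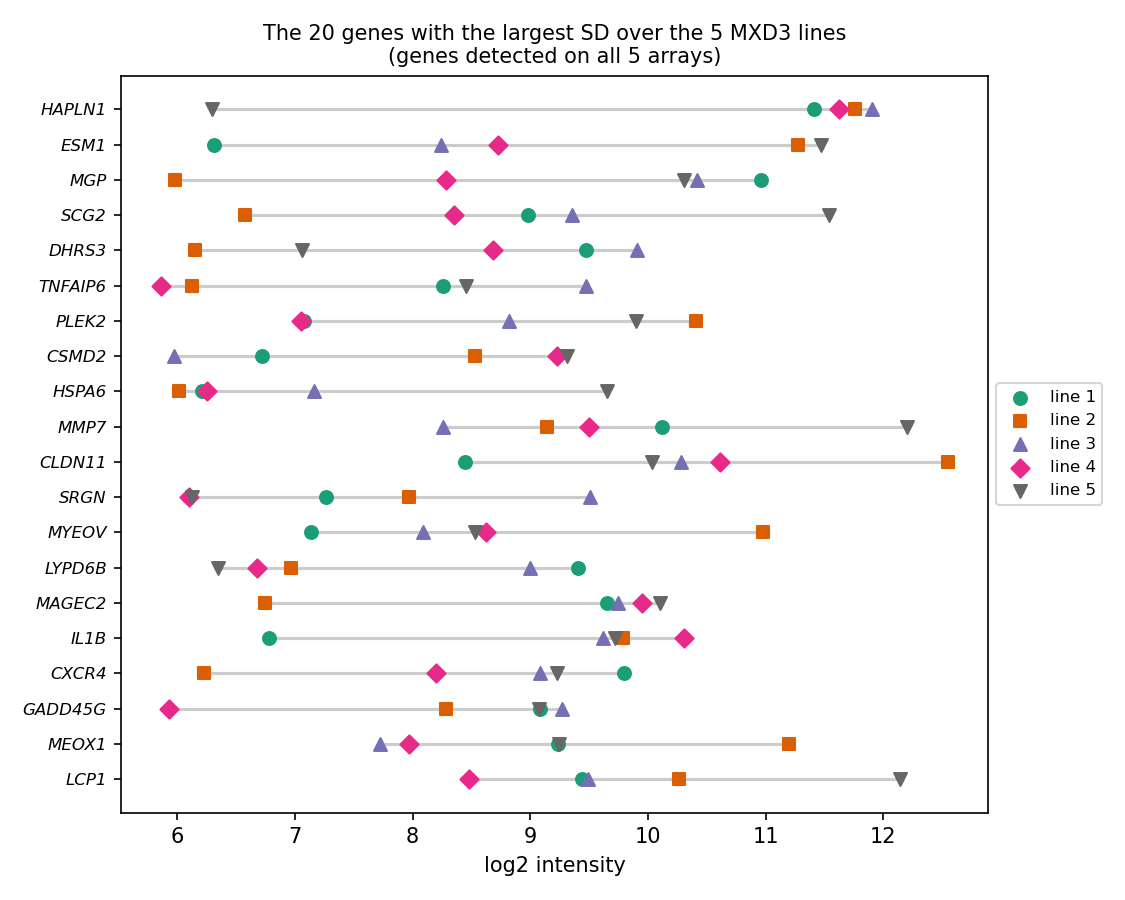
Log2 intensity (horizontal axis) of the 20 genes with the largest SD over the 5 MXD3 lines among genes detected on all 5 arrays, 1 gene per row and 1 marker per line. HAPLN1 has 4 lines between 11.41 and 11.90 and line 5 at 6.29, while ESM1 and SCG2 spread over the whole width of their row.

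In several other genes of this group 1 line stood apart by a gap of 1.88 to 2.18, while the other 4 were not close together. SCG2, a granule protein of neuroendocrine cells, read 8.98, 6.58, 9.35, 8.35 and 11.54 in lines 1 to 5, with line 5 highest and line 2 lowest. CLDN11, a tight junction protein known from myelin, read 8.44, 12.55, 10.28, 10.61 and 10.03, with line 2 highest and line 1 lowest. CXCR4, the receptor of the chemokine CXCL12, read 9.80, 6.22, 9.08, 8.20 and 9.23. Line 2 was lowest, and another CXCR4 probe placed line 2 below the other 4 by 2.05. LCP1, an actin-bundling protein of leukocytes that many tumour lines express, read 9.44, 10.26, 9.49, 8.48 and 12.14, with line 5 highest. MMP7, the protease matrilysin, read 10.12, 9.14, 8.25, 9.50 and 12.20, and line 5 was again highest.

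To see what sets a line apart, each line was tested against the other 4 with limma, with p-values adjusted by Benjamini-Hochberg over all 11643 genes. The lone line is assumed to vary like the other 4. An exact permutation test of 1 line against 4 cannot go below p = 0.2, so these calls rest on the variance that limma shares across genes. At an adjusted p below 0.05, 1 gene was higher (0.00859%) and 1 lower (0.00859%) in line 2, and 1 was higher (0.00859%) and 1 lower (0.00859%) in line 5. Lines 1, 3 and 4 had 0 calls in either direction (0% each). The counts at an unadjusted p below 0.05 were 566, 625, 364, 487 and 1043 genes in lines 1 to 5.

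A count without a test also placed line 5 first. The 5 values of each gene were sorted and the lines split at the largest gap. In 331 genes (2.84%) that gap was 1 or more, which is 2-fold. In 246 of them 1 line stood alone and in 85 (0.73%) a pair of lines stood against 3. Line 5 stood alone above the others in 71 genes (0.61%) and below in 13 (0.112%). Line 2 stood alone above in 25 (0.215%) and below in 34 (0.292%), and line 1 above in 30 (0.258%) and below in 18 (0.155%). Line 3 stood alone above in 13 (0.112%) and below in 16 (0.137%), and line 4 above in 15 (0.129%) and below in 11 (0.0945%). Of the 331 genes, 189 were detected on all 5 arrays. For 26 of them 30 other probes of the same gene were measured, and 24 of the 30 separated the same lines fully. Of the other 6, the probe of ANKMY1 had a difference of -0.17, and 5 differed by 0.10 to 0.24, where the probe used for the gene differed by 1.43 to 2.30.

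**Figure D2:**
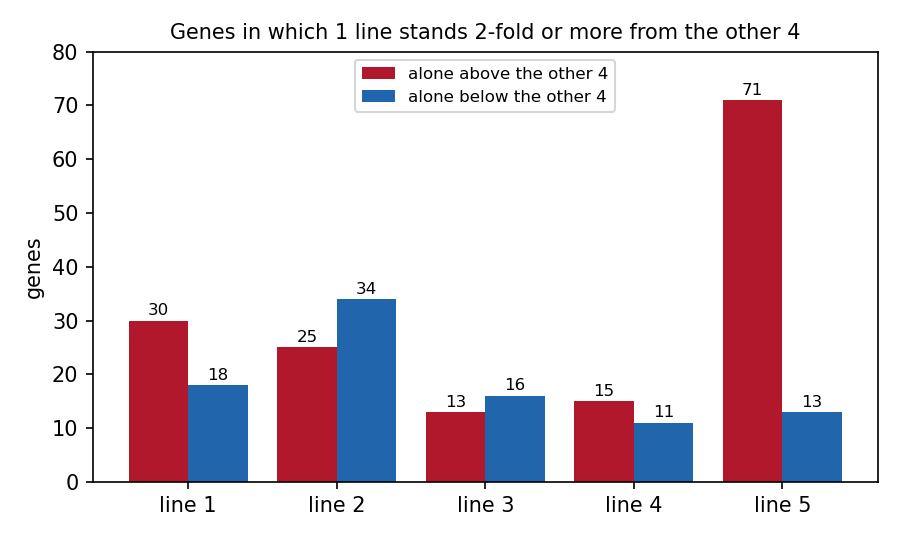
Number of genes (vertical axis) in which 1 MXD3 line lay above (red) or below (blue) the other 4 with a gap of 2-fold or more to the nearest of them. Line 5 stands out with 71 genes above the other 4, against 13 to 30 in the other lines. Among genes detected on all 5 arrays these counts were 43 for line 5 and 6 to 16 for the other lines.

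The genes in which line 1 lay alone below the rest held several inflammatory cytokines, although the cytokine list as a whole had a median near that of all genes. IL1B codes for interleukin 1 beta and read 6.78 in line 1, against 9.79, 9.61, 10.30 and 9.72 in lines 2 to 5. The difference was -3.08 (SE 0.30, limma adjusted p = 0.183). CXCL8, the neutrophil chemokine interleukin 8, read 11.19 in line 1, against 13.63, 13.58, 13.31 and 13.86 in lines 2 to 5, a difference of -2.41 (SE 0.25, limma adjusted p = 0.183). In both genes line 1 lay far below 4 lines that were close together, without passing the threshold over all genes. With a variance prior that follows intensity, the adjusted p was 0.0374 for IL1B and 0.0346 for CXCL8. CPXM2, a secreted protein of the carboxypeptidase family, read 6.20 in line 1, against 8.57, 8.71, 8.23 and 8.71.

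The 18 genes in which line 1 stood alone below the rest also held IL1A, IL6, CXCL1, CXCL2, SPP1, EDN1 and DUSP6. IL6, the main inducer of the acute phase response, read 10.95 in line 1, against 13.18, 13.35, 12.60 and 12.67 in lines 2 to 5. CXCL1 read 10.03 in line 1, against 12.58, 11.70, 11.94 and 12.06. IL1A read 9.89 in line 1, against 12.53, 12.01, 11.54 and 11.71. The separation did not extend to all cytokines of the list. TNF read 7.14 in line 1, against 6.27, 7.97, 6.69 and 6.05, and IL11, a cytokine of the IL6 family, read 9.77 in line 1, against 8.93, 8.92, 9.68 and 10.58. IL18 differed by 0.41 at most between any lines. Over the 13 measured cytokines of the IL1, IL6 and TNF type the median difference of line 1 was -0.05, near the 0.01 of all genes. Over the 13 measured chemokines it was -0.55, with 11 below the mean of the other 4 (48.2% of all genes) and 8 lowest in line 1 (19.5% of all genes).

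Several of these genes are known targets of the inflammatory transcription factor NF-kB, so the promoters of the 18 genes, 250 bases before to 50 after the start in RefSeq's GRCh38.p14 annotation, were searched on both strands for an NF-kB motif of 3 G, any 2 bases, 3 T and 2 C. The letters were found in 4 of the 18 promoters (22.2%), against 2.21% of the 9648 promoters of measured genes and 1.92% of the 27305 promoters in the table. The 4 were those of CXCL1, CXCL2, IL6 and SERPINB7. The AP-1 letters TGANTCA were found in 2 of the 18 (11.1%), those of CXCL8 and IL1A, against 4.88% of promoters of measured genes. The motif was chosen with the levels of these genes known and because known targets were among them, so the shares are only a description. A part of NF-kB in these levels was not tested. The promoters of the neighbouring chemokine genes CXCL1 and CXCL2 and of IL6 are shown because they hold the NF-kB letters, which are in capitals. They lie at chr4:73869143-73869442 on the plus strand, chr4:74099146-74099445 on the minus strand and chr7:22726950-22727249 on the plus strand, and each is given 5′ to 3′ on the strand of its gene.
CXCL1: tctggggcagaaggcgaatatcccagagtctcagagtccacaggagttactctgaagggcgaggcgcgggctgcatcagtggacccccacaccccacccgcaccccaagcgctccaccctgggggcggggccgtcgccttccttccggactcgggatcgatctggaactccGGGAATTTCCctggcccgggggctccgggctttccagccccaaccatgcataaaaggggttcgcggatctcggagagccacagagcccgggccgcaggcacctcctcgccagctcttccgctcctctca
CXCL2: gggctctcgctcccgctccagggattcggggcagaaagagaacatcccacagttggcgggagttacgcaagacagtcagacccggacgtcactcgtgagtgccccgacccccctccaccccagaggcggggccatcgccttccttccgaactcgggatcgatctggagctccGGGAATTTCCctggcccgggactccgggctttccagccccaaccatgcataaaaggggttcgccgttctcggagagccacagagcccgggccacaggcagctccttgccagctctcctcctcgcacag
IL6: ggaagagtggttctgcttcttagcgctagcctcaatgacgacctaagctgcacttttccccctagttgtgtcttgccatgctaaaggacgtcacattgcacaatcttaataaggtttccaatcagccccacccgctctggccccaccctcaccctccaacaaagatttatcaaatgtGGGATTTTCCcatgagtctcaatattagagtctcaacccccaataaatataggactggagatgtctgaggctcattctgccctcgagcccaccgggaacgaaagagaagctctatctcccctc
The motif begins at base 172 of the window in CXCL1, 173 in CXCL2 and 178 in IL6, with the same 10 letters in both chemokine promoters.

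Several genes of early growth factor signalling had low levels in line 1. The median of 22 immediate early and AP-1 genes was -0.48 in line 1, with 12 lowest there (19.5% of all genes). DUSP4, a phosphatase that dampens MAP kinase signalling, read 6.88 in line 1, against 9.19, 8.16, 7.88 and 9.61 in lines 2 to 5. HBEGF, a ligand of the EGF receptor, read 8.90 in line 1, against 11.04, 9.57, 9.46 and 10.37. Of the 24 measured receptor tyrosine kinase and growth factor genes 13 were lowest in line 1, the EGF receptor gene EGFR among them with 10.18 in line 1, against 11.27, 10.98, 11.12 and 11.17. None of these genes passed the limma threshold. On the high side, AIM2, a sensor of cytosolic DNA that nucleates an inflammasome, read 10.62 in line 1, against 8.09, 8.54, 8.11 and 8.39, a difference of 2.34 (SE 0.25, limma adjusted p = 0.183). PTGER2, a receptor of prostaglandin E2, read 8.94 in line 1, against 6.13, 6.64, 6.97 and 6.80. Line 1 was alone at the top in both genes.

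Line 2 was set apart by ADAM11, a member of the ADAM family without protease activity that is known from neurons. ADAM11 read 10.10 in line 2, against 4.78, 4.79, 4.73 and 4.86 in lines 1, 3, 4 and 5, where it was not detected. It rose in line 2 by 5.31 (SE 0.19, limma adjusted p = 0.000703), at least 21.4-fold. Such a lower bound sets the line against, on each dim array, the higher of the lowest level of a detected probe and the gene's own value. MAGEC2, a cancer-testis antigen gene on the X chromosome, fell by 3.12 (SE 0.24, limma adjusted p = 0.0451). It read 6.74 in line 2, against 9.65, 9.75, 9.95 and 10.10. The call of ADAM11 held without each other line in turn, and that of MAGEC2 was lost in each of these fits.

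Further genes of line 2 did not pass the threshold. MYEOV, a gene overexpressed in some myelomas, read 10.98 in line 2, against 7.14, 8.09, 8.62 and 8.53. MEOX1, a homeobox gene of mesoderm development, read 11.20 in line 2, against 9.23, 7.72, 7.97 and 9.24, and another probe gave a difference of 2.44. PPEF1, a phosphatase with calcium-binding EF hands, was detected in every line but line 2, where it read 4.87, against 7.19, 7.54, 9.47 and 8.99. HBEGF, EGR1 and NRG1 were all highest in line 2, and COL1A2, a chain of type I collagen, was lowest there with 10.15, against 12.25, 12.23, 12.21 and 11.35. COL3A1, the chain of type III collagen, was not detected in line 2.

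Line 3 alone had high levels of 3 SSX genes, cancer-testis antigens of the X chromosome whose products repress transcription. Some genes of the SSX family, though not all 3 named here, fuse to SS18 in synovial sarcoma. SSX3 read 9.46 in line 3, against 5.33, 5.06, 5.40 and 5.90 in lines 1, 2, 4 and 5, a difference of 4.04 (SE 0.33, limma adjusted p = 0.0788). SSX5 read 7.85 in line 3, against 5.05, 5.04, 4.70 and 4.61, and SSX2 read 8.20, against 5.00, 5.48, 4.96 and 4.83. SSX2 and SSX5 were detected in line 3 alone. The SSX copies are nearly identical, so how many of them the 3 probes tell apart is uncertain.

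ATRX, a chromatin remodeller that places histone H3.3 with DAXX, was not detected in line 3. It read 5.44 in line 3, against 7.93, 7.74, 8.14 and 8.00, at least 4.63-fold lower (difference -2.51, SE 0.23, limma adjusted p = 0.0788). CDH6, an adhesion protein of the cadherin family, was not detected in line 3 either, with 5.11, against 7.01, 7.32, 8.22 and 10.25. PDE6B, a subunit of the rod phosphodiesterase, read 6.13 in line 3, against 8.01, 8.13, 8.25 and 7.71. Of 20 measured genes of cholesterol and fatty acid synthesis 17 lay below the mean of the other 4 in line 3 (47.9% of all genes) and 10 were lowest there (16.6% of all genes), with a median difference of -0.24. HMGCS1, which makes the precursor of mevalonate, read 10.29 in line 3, against 10.83, 11.41, 10.63 and 10.95. INSIG1, a feedback regulator of the pathway, read 10.05 in line 3, against 10.73, 10.84, 10.32 and 10.41. No gene of the list passed the threshold.

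Lines 3 and 4 had the fewest genes 2-fold or more from the mean of the other 4, at 181 and 182. No gene passed the limma threshold in line 4. GADD45G, a growth arrest gene induced by stress, read 5.93 in line 4, against 9.08, 8.28, 9.27 and 9.07 in lines 1, 2, 3 and 5, a difference of -3.00 (SE 0.39). DIO2, the deiodinase that activates thyroid hormone, read 7.85 in line 4, against 9.40, 10.67, 9.82 and 9.22. SH2D4A, an adaptor with an SH2 domain, read 6.56 in line 4, against 8.34, 8.14, 8.60 and 8.70. Line 4 lay below all 4 others in each of these genes. On the high side, the microtubule protein gene MAP1A read 9.21 in line 4, against 6.97, 6.58, 7.10 and 7.52. CCDC60 and PYROXD2 were detected in line 4 alone, at 6.71 and 6.78.

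Line 5 was set apart by a low level of HAPLN1 and by 71 genes in which it alone was high. Of these 71 genes 43 were detected on all 5 arrays. A measured gene needs detection on only 1 array, so some, such as ODAPH, entered through line 5 alone. HAPLN1 fell by 5.38 (SE 0.23, limma adjusted p = 0.00407), a 41.7-fold lower intensity, and the call held without each other line in turn. ODAPH, a phosphoprotein gene known from enamel formation, read 8.12 in line 5 and was not detected elsewhere, at 5.18, 5.35, 5.20 and 5.30. It rose by 2.86 (SE 0.18, limma adjusted p = 0.019), at least 5.24-fold, and this call was lost when any other line was left out. HSPA6, a heat shock protein gene that is nearly silent without stress, read 9.65 in line 5, against 6.21, 6.02, 7.16 and 6.25. The HSPA1A message read 14.06 in line 5, against 12.81, 13.49, 13.43 and 13.22. HSPA1A and HSPA1B are near-identical copies and their probes may not be told apart. The whole list of 15 heat shock protein genes had a median difference of 0.08 in line 5, so the high members stood beside others that were not.

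Some matrix protease genes and 3 contractile genes had their highest level in line 5, and none passed the limma threshold. MMP10, stromelysin 2, read 9.21 in line 5, against 4.92, 6.42, 4.93 and 5.51 in lines 1 to 4. MMP9 read 9.49 in line 5, against 7.60, 9.19, 7.10 and 8.76. Of the 19 measured matrix protease and inhibitor genes 11 were highest in line 5 (22.1% of all genes), with a median difference of 0.42, against -0.41 in line 1. Among mesenchymal and muscle markers, MYL9, a light chain of smooth muscle myosin, read 9.61 in line 5, against 6.95, 7.56, 6.73 and 6.27. TAGLN, the actin-binding protein transgelin, read 14.38 in line 5, against 12.30, 12.41, 12.21 and 12.82. ACTA2, smooth muscle actin, read 11.22 in line 5, against 9.28, 8.64, 8.64 and 9.56. Line 5 was above all others in these 3 genes, and other probes of MYL9 and TAGLN gave differences of 2.55 and 1.55. CNN1, another of the contractile markers on this list, was detected in line 1 alone. Of the 11 measured markers of the list 4 were highest in line 5 (22.1% of all genes), and their median difference was 0.08 there. On the low side, RUNDC3B read 5.50 in line 5, against 7.84, 8.11, 7.16 and 7.73, and GNAZ, a G protein alpha subunit of neurons and platelets, read 5.53, against 6.98, 7.15, 7.29 and 7.44. Both were not detected in line 5.

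Genes that vary together were found from shared splits of the lines, since 5 arrays are too few for a correlation. Of the 30 ways to split 5 lines at a gap, 27 held at least 1 gene. Among splits of a pair against 3, lines 2 and 5 were high together in 14 genes (0.12% of all genes) and lines 1 and 3 in 11 (0.0945%). Lines 1 and 3 were low together in 9 (0.0773%). The pair of lines 1 and 3 was also the most alike over all genes. WDR72, an enamel protein gene, read 9.45 and 9.34 in lines 1 and 3, against 4.55, 4.83 and 4.93 in lines 2, 4 and 5, where it was not detected. PLAC8 read 8.22 and 8.28 in lines 1 and 3, against 4.76, 5.50 and 5.09. VIP, a neuropeptide gene, had the reverse pattern, with 6.12 and 5.55 in lines 1 and 3, against 10.03, 8.76 and 9.36 in lines 2, 4 and 5. MAGEB2, a cancer-testis gene, followed it with 10.84 and 10.78 in lines 1 and 3, against 12.86, 12.87 and 13.30.

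Lines 4 and 5 were high together in 4 genes (0.0344% of all genes) and low together in 3 (0.0258%). Of the 4 genes 2 were X-linked, as are 3.82% of all measured genes, and 4 genes are too few to compare these shares. NLGN4X, an X-linked adhesion protein of the postsynaptic side, read 8.84 and 9.17 in lines 4 and 5, against 4.90, 4.92 and 4.94 in lines 1 to 3. ATP1B4, another X-linked gene, read 8.38 and 8.67 in lines 4 and 5, against 4.81, 4.68 and 4.82. Both genes were detected in lines 4 and 5 only. MDGA2, a membrane protein that binds neuroligins, was their mirror image, at 4.72 and 4.57 in lines 4 and 5, against 7.65, 7.15 and 7.43.

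Other pairs of lines shared single genes of varied function. DHRS3, a reductase of retinaldehyde, read 6.15 and 7.06 in lines 2 and 5, against 9.47, 9.90 and 8.68 in lines 1, 3 and 4. KCNJ6, a potassium channel subunit of neurons, read 7.79 and 7.87 in lines 2 and 5, against 5.67, 4.87 and 5.48. ESM1 belongs to the same split as KCNJ6. POSTN, the matrix protein periostin, read 8.77 and 10.47 in lines 1 and 5, against 4.98, 6.20 and 6.66 in lines 2, 3 and 4. APOE, a lipid carrier, was detected in lines 1 and 5 only, at 6.41 and 7.33. TNFAIP6, a hyaluronan-binding protein induced by inflammation, read 6.12 and 5.86 in lines 2 and 4, against 8.26, 9.47 and 8.45 in lines 1, 3 and 5. GPX3, TFF2 and PLBD1 had this split too, with lines 2 and 4 low. ADM, the vasodilator adrenomedullin, read 12.96 and 12.58 in lines 2 and 3, against 11.33, 11.34 and 11.24. IGFBP5, a binding protein of insulin-like growth factors, read 9.81 and 9.11 in lines 3 and 4, against 11.90, 10.98 and 11.73. GPNMB, a glycoprotein of melanosomes and lysosomes, read 9.59 and 10.33 in lines 3 and 5, against 8.44, 8.24 and 7.80.

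Cancer-testis genes made up 11 of the 331 genes with a gap of 2-fold or more (3.32%). They are normally silent outside the germ line, most lie on the X chromosome, and tumour lines often express some of them. The families were picked by their symbols after the levels had been seen. Of 28 measured members 11 had a gap of 2-fold or more (39.3%, against 2.84% of all genes), and 13 were not detected on all 5 arrays (46.4%, against 13.3% of all genes). A measured gene needs detection on only 1 array, so some members, such as SSX2 and SSX5, entered through their high line alone. The share of 39.3% is therefore a description. Of the 15 members detected on all 5 arrays, only MAGEB2, MAGEC2 and PAGE2B had such a gap. PAGE1 read 9.28 in line 1, against 6.23, 6.58, 5.13 and 4.73 in lines 2 to 5. PAGE2 read 5.67 and 6.15 in lines 2 and 5, against 8.31, 9.47 and 9.42 in lines 1, 3 and 4. Its near copy PAGE2B had the same split, and their probes may share messages. VCX read 5.20 and 4.92 in lines 2 and 3, against 8.36, 7.34 and 8.26.

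Other members of the same families were nearly constant. PAGE5 lay between 14.19 and 14.48, MAGEC1 between 11.64 and 11.81, CT45A3 between 12.23 and 12.51 and MAGEA3 between 9.87 and 10.35. Over all measured genes of the X chromosome, 24 of 445 (5.39%) had a gap of 2-fold or more, against 2.74% of autosomal genes. Among genes detected on all 5 arrays the shares were 2.21% for X and 1.87% for all chromosomes.

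Gene lists were described by their counts and medians. The 40 measured genes of G2/M and mitosis all lay below the mean of the other 4 in line 5 (52.6% of all genes), and 36 were lowest there (25.3% of all genes). Their median difference was -0.54 in line 5, against -0.02 over all genes. MKI67, the proliferation marker, read 8.56 in line 5, against 9.10, 9.20, 9.34 and 9.49 in lines 1 to 4. TOP2A, which untangles chromosomes, read 13.16 in line 5, against 14.00, 13.88, 13.79 and 13.96. FOXM1, a transcription factor of mitotic genes, read 9.45 in line 5, against 10.15, 10.15, 10.24 and 10.27. The kinesin gene KIF2C read 11.25 in line 5, against 12.17, 11.98, 11.95 and 12.14. Line 5 was lowest in each of these, by amounts below 2-fold, and no gene of the list passed the limma threshold.

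Line 1 stood at the other end of this list. In line 1, 38 of the 40 genes lay above the mean of the other 4 (51.8% of all genes) and 22 were highest (21% of all genes), with a median of 0.30. That mean includes the low line 5, which by itself raises the difference of each other line. Lines 2, 3 and 4 had 29, 25 and 30 of the 40 genes above the mean of their other 4. The 39 measured genes of G1/S and DNA replication did not follow, with a median of -0.12 in line 1 and -0.07 in line 5. Among inhibitors of cyclin-dependent kinases, CDKN1A, the p53 target p21, read 13.43 in line 5, against 12.08, 13.14, 12.47 and 12.56. CDKN1B, which codes for p27, read 9.36 in line 5, against 10.36, 9.84, 10.34 and 10.16. Line 5 thus had the highest CDKN1A and the lowest CDKN1B level. Growth rate and cell density at harvest are not given in the labels, and their part in these levels was not tested.

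**Figure D3:**
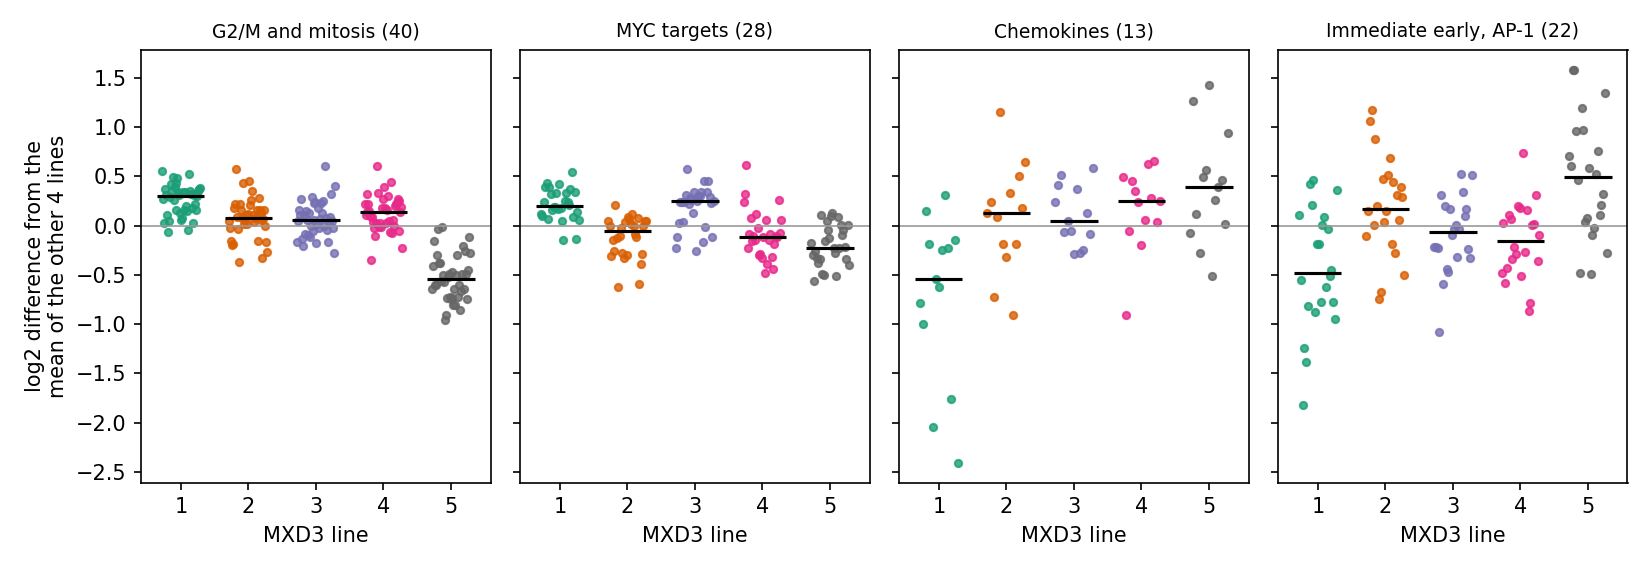
Log2 difference of a line from the mean of the other 4 (vertical axis) for each measured gene of 4 lists (points), by MXD3 line (horizontal axis). Black bars are list medians, which are 0.30 in line 1 and -0.54 in line 5 for G2/M and mitosis, and -0.55 in line 1 for chemokines.

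Immediate early and AP-1 genes ran opposite to the mitotic genes in lines 1 and 5. Their median difference was 0.50 in line 5, with 12 of 22 highest there (22.1% of all genes), and -0.48 in line 1. SPRY2, a feedback inhibitor of receptor tyrosine kinases, read 11.26 in line 5, against 9.43, 10.42, 9.93 and 9.90 in lines 1 to 4. DUSP5, a phosphatase of nuclear ERK, read 12.27 in line 5, against 10.02, 11.95, 10.14 and 10.66. DUSP6, its cytoplasmic counterpart, read 9.92 in line 5, against 8.04, 9.16, 9.40 and 9.24. In these 3 genes line 1 was lowest and line 5 highest. The 28 measured MYC target genes of ribosome assembly and growth varied less, with a median difference of 0.20 in line 1, -0.05 in line 2, 0.25 in line 3, -0.11 in line 4 and -0.22 in line 5. In line 1, 26 of the 28 were above the mean of the other 4 (51.8% of all genes) and 13 were highest (21% of all genes). That mean includes the lower lines 4 and 5, which by itself raises the difference of line 1. RRP12, a factor of ribosome maturation, read 10.55 and 10.39 in lines 1 and 3, against 9.64, 9.97 and 10.04 in lines 2, 4 and 5.

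The 8 measured genes of the Hedgehog pathway, which drives granule precursor growth, had a median difference of -0.35 in line 2 and -0.18 in line 5, and of 0.11, 0.36 and 0.31 in lines 1, 3 and 4. HHIP, a decoy receptor and target of the pathway, read 8.06 and 7.91 in lines 2 and 5, against 9.85 and 9.24 in lines 1 and 3, with line 4 between them. GLI3, a transcription factor of the pathway, read 10.11 in line 5, against 11.13, 10.95, 11.07 and 11.34. PTCH1, the Hedgehog receptor and a target gene, read 7.37 in line 3, against 6.62, 6.49, 7.13 and 6.82. Hypoxia response genes had a median of 0.23 in line 2 and -0.27 in line 4. The median SD over the lines was 0.10 for 26 cytosolic ribosomal proteins, 0.11 for 32 genes of the respiratory chain and ATP synthase, 0.19 for 20 glycolytic genes and 0.22 for 21 HOX genes, against 0.24 for all genes and 0.22 for those detected on all 5 arrays. The HOX genes thus varied about as much as other detected genes. It was 0.53 for the cytokines, 0.49 for mesenchymal and muscle markers, 0.47 for matrix glycoproteins and 0.45 for matrix proteases.

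**Figure D4:**
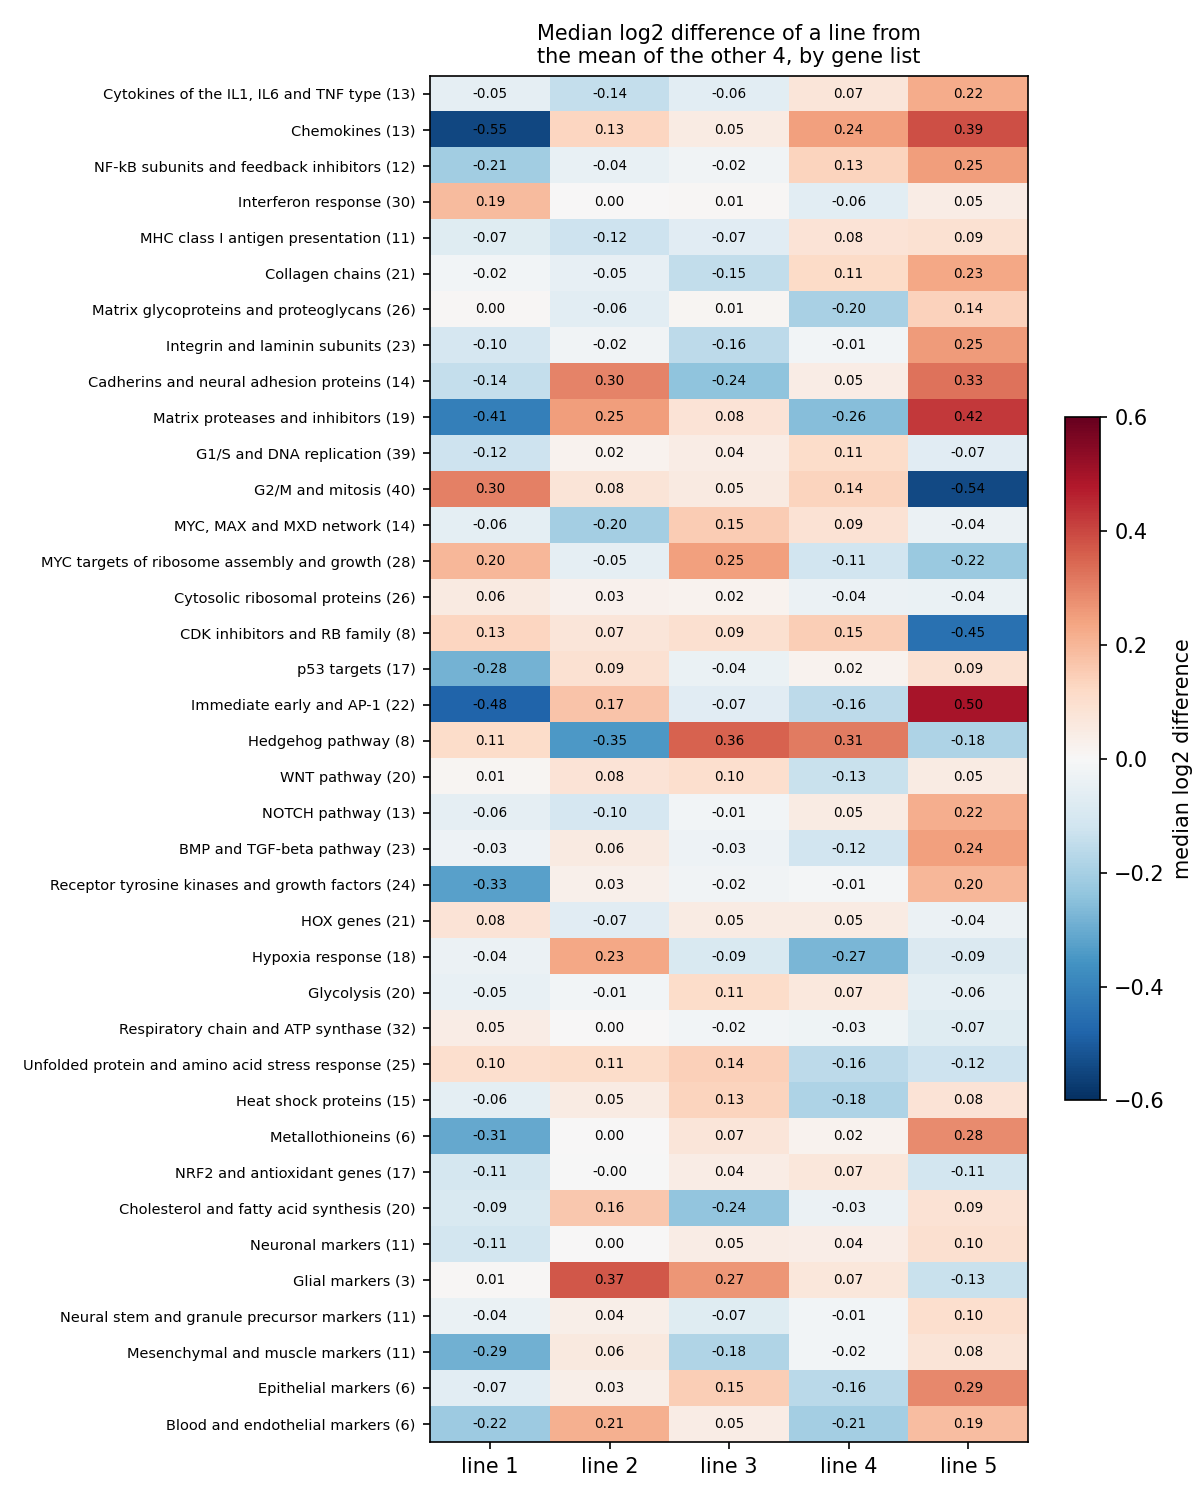
Median log2 difference of each MXD3 line (columns) from the mean of the other 4 for 38 gene lists (rows, with the number of measured genes in brackets), red for higher and blue for lower. The strongest cells are chemokines in line 1 (-0.55), G2/M and mitosis in line 5 (-0.54) and immediate early genes in lines 1 (-0.48) and 5 (0.50).

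Neighbouring genes also varied together. Genes were put in RefSeq order along each chromosome, and the difference of a line from the mean of the other 4 was followed as a running median over 15 genes. Windows at 0.4 or beyond were joined into 49 runs with 1303 genes. Windows with line 2 lower made up 1.92% of all windows and those with line 5 higher 1.81%, against 0.531% for line 4 lower and 0.398% for line 1 higher. They made up 0.283% for line 4 higher, 0.274% for line 5 lower, 0.221% for line 2 higher, 0.106% for line 3 higher, 0.0796% for line 1 lower and 0.00884% for line 3 lower. Line 3 had 55 genes in runs, against 478 in line 5, 450 in line 2, 319 in line 4 and 174 in line 1. Differences within a run were small for each gene, and no gene in any run passed the limma threshold. The runs were found from these differences, so the values below describe them.

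The longest run lay on chromosome 15, where line 2 was low over 137 measured genes between UACA and LRRC28. The median difference of line 2 was -0.43, and 117 of the 137 genes were below the mean of the other 4 (50.6% of all genes). NMB, the peptide neuromedin B, read 5.86 in line 2, against 7.30, 7.36, 7.33 and 7.80 in lines 1, 3, 4 and 5. STRA6, a membrane receptor for retinol uptake, read 6.86 in line 2, against 8.45, 8.07, 8.24 and 8.05. Line 2 lay below all others in both. On chromosome 3, line 2 was low over 84 genes between TRNT1 and CMC1, with a median of -0.49 and 74 genes below. SETMAR read 9.62 in line 2, against 10.61, 10.33, 10.45 and 10.65. PPARG, the nuclear receptor of fat cell differentiation, read 10.85 in line 2, against 13.04, 12.01, 12.56 and 11.93, but another PPARG probe differed by only 0.14.

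Line 5 was high over long runs on chromosomes 9 and 6. On chromosome 9 it was high over 120 genes between NCBP1 and ZBTB43 (median 0.43, 106 genes above, 47.4% of all genes) and over 64 genes between FOXD4L4 and SPTLC1 (median 0.43, 57 genes above). The first of these holds TNC, the matrix protein tenascin-C, which read 13.70 in line 5, against 12.04, 11.90, 11.53 and 12.35 in lines 1 to 4. It also holds ABCA1, a cholesterol exporter, with 12.01 in line 5, against 9.91, 10.38, 8.94 and 10.74, and LHX2, a LIM homeobox gene, with 11.34, against 10.12, 9.44, 10.02 and 10.27. On chromosome 6 line 5 was high over 55 genes between TPBG and SOBP, with a median of 0.48 and 48 genes above. UBE2J1, a ubiquitin-conjugating enzyme of the endoplasmic reticulum, read 10.16 in line 5, against 9.15, 8.67, 8.86 and 8.64. Over 35 genes of the same stretch, between CEP162 and LIN28B, line 2 was low at the same time, with a median of -0.46 beside 0.51 for line 5. Each of these differences is taken from a mean that includes the other line, so they are not independent. Line 2 was lowest in 21 of these 35 genes (20.5% of all genes). CASP8AP2 there read 8.05 in line 2, against 8.56, 8.97, 9.10 and 9.39 in lines 1, 3, 4 and 5.

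Line 4 was low over 46 genes of chromosome 9 between POLR1E and GKAP1 (median -0.47, 42 genes below, 48.7% of all genes) and over 40 genes of chromosome 5 between C5orf22 and ANXA2R (median -0.34, 34 genes below). The chromosome 9 run overlaps that of line 5 between FOXD4L4 and SPTLC1, and FRMD3 lies in both. Line 5 had a median of 0.29 in the run of line 4, and line 4 one of -0.34 in that of line 5. Each mean of the other 4 includes the other of these lines, so the overlapping runs are not independent. ALDH1B1, a mitochondrial aldehyde dehydrogenase in the chromosome 9 stretch, read 7.94 in line 4, against 9.41, 8.98, 8.86 and 8.32. Line 4 had 7 higher runs beside 6 lower ones. The longest higher run covered 35 genes of chromosome 7 (median 0.40, 31 genes above, 51.3% of all genes). Line 1 was high over 35 genes of chromosome 7 between CLCN1 and TMUB1, with a median of 0.42 and 30 genes above. CNTNAP2, an adhesion protein of axons in that run, read 12.67 in line 1, against 11.32, 11.28, 11.68 and 11.38 in lines 2 to 5. Elsewhere on chromosome 7 line 2 was low over 31 genes between ATP5MF and MOSPD3, all 31 of them below the mean of the other 4. That mean includes line 4, which had a median difference of 0.34 over the same genes, beside -0.42 for line 2. Of the genes that set a line apart by 2-fold or more, 13 of 84 lay in runs of their own line for line 5 (15.5%, against 4.11% of all genes) and 8 of 59 for line 2 (13.6%, against 3.86%). The counts were 2 of 48 for line 1 (4.17%, against 1.49%), 0 of 29 for line 3 (0%, against 0.472%) and 0 of 26 for line 4 (0%, against 2.74%). With so few genes and such small shares, the counts of 0 say little. Both the runs and these genes come from the same differences, so the shares are not independent. DNA copy number was not measured in these samples, and the part of gene dosage in the runs was not tested.

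**Figure D5:**
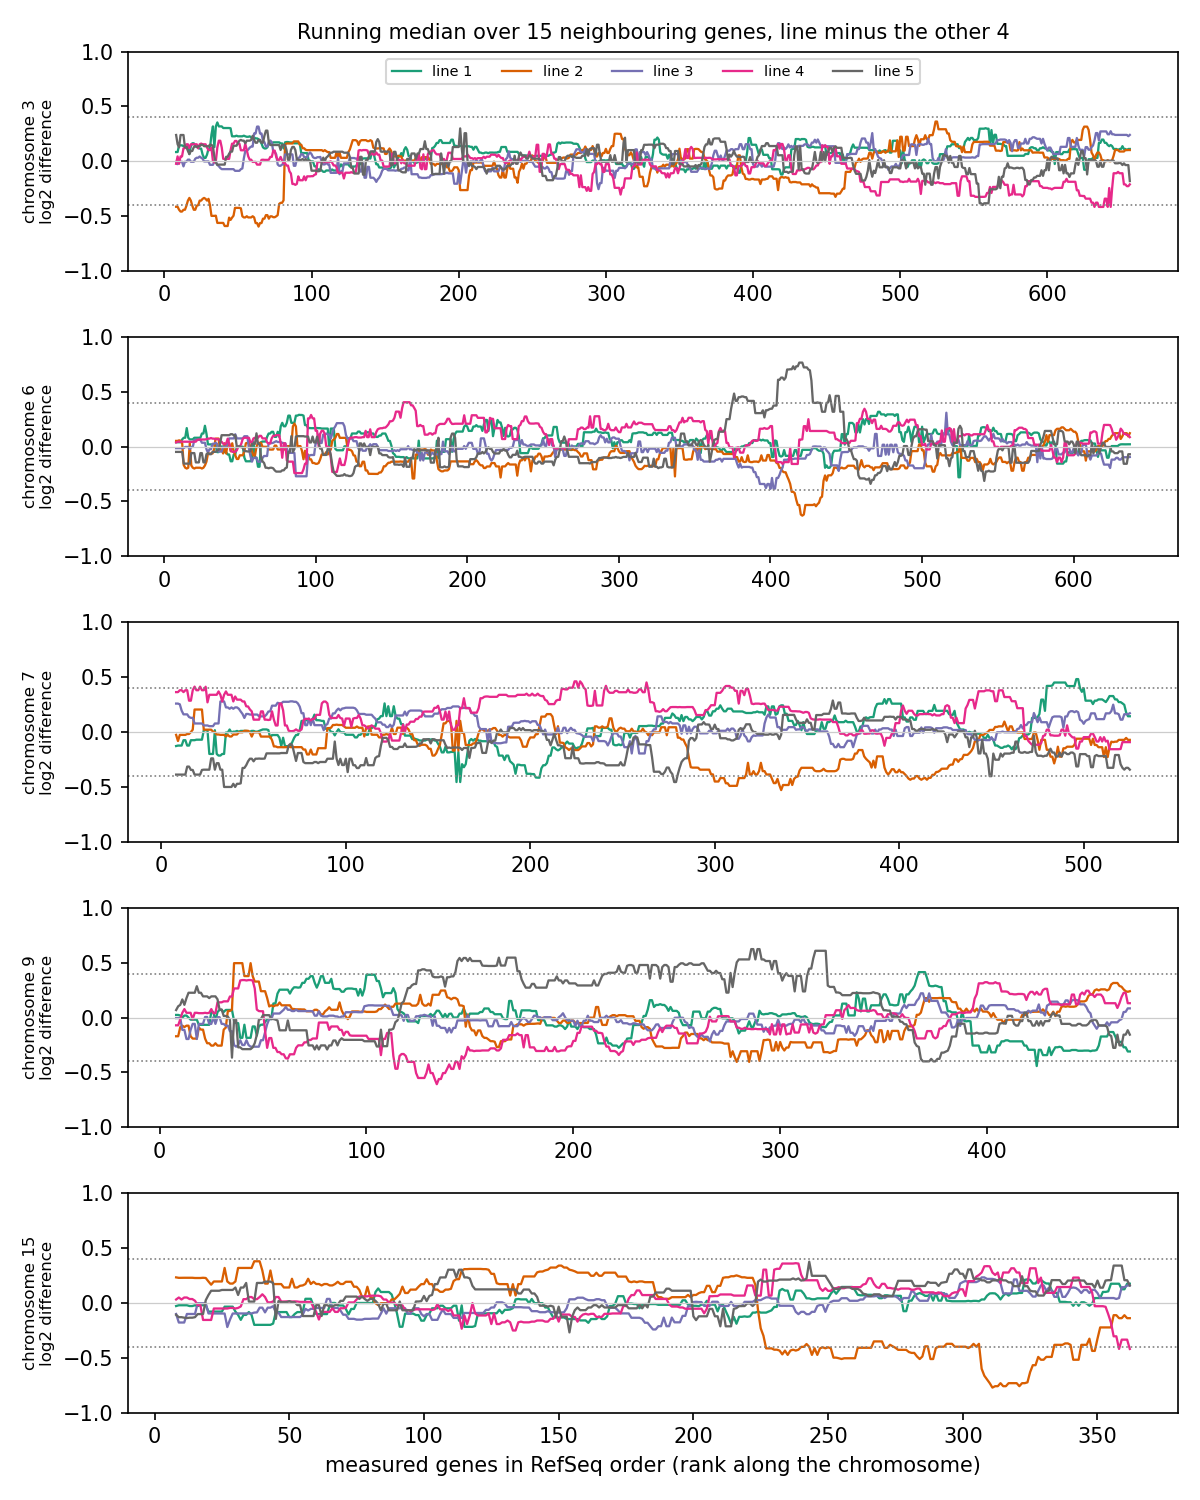
Running median over 15 neighbouring genes of the log2 difference of each MXD3 line from the mean of the other 4 (vertical axis), against the rank of the measured genes in RefSeq order (horizontal axis), for 5 chromosomes. Dotted lines mark 0.4 in either direction, and line 2 (orange) stays near -0.43 over 137 genes of chromosome 15 while line 5 (grey) stays near 0.43 over long stretches of chromosome 9.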

How the data were processed

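Total RNA was labelled with biotin and hybridised to Illumina bead arrays, per the labels' protocols. The authors deposited a non-normalized table in which each of 22184 probes has a linear intensity per array and a detection p-value beside it, per the file headers. The scanner software was BeadStudio, per the submitters' processing notes. The deposited series matrix holds intensity values that are a straight line of the first table within each array, and served as an alternative.

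The intensities of all 8 arrays were background-corrected and quantile-normalized with neqc (limma 3.58.1, R 4.3.3, offset 16), which here derived the negative control distribution from detection p-values. The 3 arrays that are not MXD3 lines entered the normalization only. A probe was kept with a detection p-value below 0.01 on at least 1 of the 5 MXD3 arrays. The platform annotation gave 1 gene for 19715 probes, none for 2469 and several for 0, and symbols were updated through Entrez IDs, of which 20 were not matched in RefSeq's GRCh38.p14 table. Each gene stands by its kept probe with the highest mean, and 1206 genes had more than 1. Each line was tested against the other 4 with lmFit and eBayes, and the fit was tested on simulated data. Tables and plots were made with Python 3.11.15, pandas 2.3.3 and matplotlib 3.10.9. The precision is limited by the number of arrays, with 1 per line. Nothing in the labels says that the lines came from separate transfections, so p-values measure only the spread between these samples.

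Genes were named by rule: MXD3 and its network, the 20 genes with the largest SD among those detected on all 5 arrays, called genes or else the 3 with the largest gap for each line and direction, up to 5 for each pair of lines, up to 4 for each list, and the ends and up to 4 members of each run. Further members of lists, genes low in line 1 and cancer-testis genes were named after their values were seen. The lines, lists and rules were chosen with earlier results of these data known. Alternatives were normalization over the 5 arrays alone, the series matrix values with a floor of 16, genes detected on all 5 arrays, the mean of a gene's probes, a variance prior that follows intensity, and leaving out each line.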

Additional observations from a re-analysis of the deposited data

Results flagged for a closer look

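A measure was looked at again where its highest or lowest line lay so far from the nearest other line that the gap exceeded 0.71 of the whole range, Dixon's 95% limit for 5 values. By chance this happens in about 1 of 20 groups of values. It held for 700 of the 11643 measured genes (6.01%), and for 28 of the 155 genes named in the text, which were largely chosen for standing apart. No explanation was tested for any of them.

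In line 1 the ratio of gap to range was 0.823 for AIM2, 0.757 for CNN1 and 0.71 for CNTNAP2, all high in that line, and 0.809 for CPXM2, 0.805 for IL1B, 0.793 for CXCL8, 0.782 for CXCL2 and 0.739 for EGFR, all low. In line 2 it was 0.976 for ADAM11, high, and 0.866 for MAGEC2, 0.749 for STRA6 and 0.742 for NMB, low. In line 3 it was 0.864 for SSX5, 0.81 for SSX3 and 0.806 for SSX2, high, and 0.852 for ATRX and 0.746 for PDE6B, low. In line 4 it was 0.848 for FOXD4L4, 0.761 for PYROXD2 and 0.734 for CCDC60, high, and 0.737 for SH2D4A, low. The FOXD4L4 levels ran only between 10.12 and 10.40, so its ratio describes a narrow range. In line 5 it was 0.941 for ODAPH and 0.718 for TAGLN, high, and 0.913 for HAPLN1, 0.856 for FOXM1, 0.763 for KIF2C, 0.758 for GNAZ and 0.754 for TOP2A, low. Of the 38 gene lists 1 had such a median, that of CDK inhibitors and the RB family, with a ratio of 0.87 and line 5 low. Its 8 measured genes had a median difference of -0.45 in line 5, against 0.07 to 0.15 in lines 1 to 4.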

How the results depend on the processing

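With 1 array per line, a line has no replicate error, and levels near background have little precision: of the 11643 measured genes 264 were detected on 1 array alone. A low call count says little about how many genes differ, since the threshold asks for small spread among 4 lines. No paired analysis was possible because no comparison with the vector lines, which share the numbers 1 and 2 with MXD3 lines in the labels, was made.

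The number of genes called was 0 in line 1, and 2 with an intensity trend in the prior (IL1B and CXCL8). It was 2 in line 2, 1 with the series matrix values, 1 among genes detected on all 5 arrays and 1 to 1 without another line. It was 0 in line 3 and 1 with the series matrix values (SSX5). It was 2 in line 5, 8 with the series matrix values, 1 with the trend and 1 to 3 without another line. Line 4 had 0 calls in each setting. The 242 genes with a 4-fold range became 581 with the series matrix values, 138 with detection on all 5 arrays, which tests fewer genes, and 157 to 211 without 1 line, lowest without line 5. The 331 genes with a 2-fold gap became 826 with the series matrix values, 189 with detection on all 5 arrays and 320 to 424 without 1 line. The 49 runs became 77 with the series matrix values and 37 to 59 without 1 line. The cause of the shifts with the series matrix values was not tested.

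ADAM11 and HAPLN1 kept their calls in all alternatives that measured them. ADAM11 and ODAPH have no value among genes detected on all 5 arrays. Beside HAPLN1, another gene was called in line 5 in that setting, with a difference of 2.55, and also with the mean of probes. MAGEC2 lost its call with the series matrix values (adjusted p = 0.109) and without each other line (0.118 to 0.246). ODAPH lost its call with the trend (0.095) and without each other line (0.0842 to 0.138). No named gene changed direction. The 5 longest runs kept their sign in 8 alternatives each, with the chromosome 15 median of line 2 between -0.47 and -0.40. The median of G2/M genes stayed between -0.57 and -0.48 in line 5 and lay between 0.15 and 0.34 in line 1. That of chemokines in line 1 stayed between -0.74 and -0.40, and that of immediate early genes in line 5 between 0.34 and 0.67. Of the 190 medians of a list in a line, 121 kept their sign in all alternatives run and 69 did not, such as those of matrix proteases in line 4 (-0.33 to 0.02) and of cytokines in line 5 (-0.04 to 0.39). With normalization over the 5 arrays, the series matrix values, detection on all 5 arrays and the mean of probes, the median of all genes in a line stayed within 0.042 of 0.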

Other observations

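Adhesion, metal-binding and collagen genes added further differences between the lines. CNTN1, a neural adhesion protein, was detected on 4 arrays and read 8.45 in line 5, against 6.44, 6.32, 5.02 and 6.65 in lines 1 to 4. NCAM2, a relative of the neural cell adhesion molecule, read 7.91 in line 2, against 5.61, 6.60, 6.89 and 6.85 in lines 1, 3, 4 and 5. LSAMP, an adhesion protein of limbic neurons, read 8.72 and 8.11 in lines 2 and 3, against 10.16, 10.72 and 10.74 in lines 1, 4 and 5. Lines 2 and 5 were each highest in 1 of these 3 genes by at least 2-fold.

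The metallothionein gene MT1F read 9.32 in line 5, against 6.91, 8.13, 7.14 and 8.39 in lines 1 to 4, and all 6 measured genes of that list lay above the mean of the other 4 in line 5 (47.4% of all genes). COL16A1, a collagen chain, read 9.11 and 8.58 in lines 1 and 3, against 7.31, 7.47 and 7.08 in lines 2, 4 and 5. BGN, the proteoglycan biglycan, read 8.88 in line 4, against 7.87, 6.06, 7.52 and 6.62 in lines 1, 2, 3 and 5. Matrix genes had their highest level in different lines, THBS2 (12.74) in line 3 and LOX (14.27) in line 1. None of the genes in these 2 paragraphs passed the limma threshold in a line against the other 4.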
